A study of Mus musculus with 40 samples.

Results

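Foxp3 and 6 genes of the regulatory T cell (Treg) signature were followed through mouse CD4 T cells at rest and after stimulation. The 7 genes were taken by symbol from the expression table: Foxp3, Il2ra, Lrrc32, Gpr83, Izumo1r, Ebi3 and Il10. All 7 were found among 21950 genes, and all 7 passed the filter on low values in every comparison, Il10 only through Tregs induced in culture. Foxp3 encodes the transcription factor that defines Tregs, and it works together with NFAT and other factors at its target genes. The proteins of the other genes are found at the surface of Tregs or are secreted by them, where they bind IL-2, carry latent TGF-β, or suppress other immune cells. Foxp3 expression is stable in Tregs that arose in the thymus, whereas Tregs induced from naive T cells in culture are known to lose it upon restimulation.

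RNA-seq was performed on 24 libraries in 8 groups of 3. Conventional T cells (Tconvs) were resting or activated, thymic Tregs (tTregs, nTreg in the labels) were resting or activated, and induced Tregs (iTregs) were resting, restimulated, or restimulated with CM-4620 (ORAIinh in the labels) or cyclosporine A (CsA). CM-4620 blocks the ORAI channel of store-operated calcium entry, and CsA blocks calcineurin, the phosphatase that activates NFAT. All cells came from the spleen of Foxp3 reporter mice on a C57BL/6 background, in which the Foxp3 locus carries a GFP or RFP cassette. Tconvs and tTregs came from mice of 2 to 4 months, and iTregs were made from reporter-negative naive T cells of mice of 6 weeks with plate-bound anti-CD3 and anti-CD28, TGF-β and IL-2. iTregs were then sorted on the reporter, rested in IL-2 and restimulated with the same antibodies. The times of activation and restimulation, the inhibitor doses and the number of mice behind each RNA-seq library were not given in the sources used here, and one sample label of the CsA libraries reads Treg where their titles read iTreg. Since nothing states that the 3 libraries of a group came from separate mice or cultures, p-values measure the spread between these libraries, which may be technical.

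Values are given as normalized counts, which are reads per gene divided by a factor for library size. Each library held between 5256800 and 15685234 reads on genes, and the tTreg libraries were the shallowest, with medians of 7582032 reads at rest and 7131717 after activation. A floor of 3 reads equals 2.12 to 5.45 normalized counts, depending on the library, and covers counting error only. Of 5 T cell markers 4 were in the table, and Cd3e, Cd3d, Cd4 and Lck stood at 1748.9 or more normalized counts in every library. The summed markers of B cells (3 genes), plasma cells (2), myeloid and dendritic cells (5), NK cells (2) and red cells (3) stayed at or below 30.9 normalized counts in every library, and the 2 CD8 genes summed to 99.0 to 236.4, of which Cd8b1 gave nearly all. The erythroid sum was 23.2 to 30.3 in resting iTregs and 14.1 or less in every other group, and the NK sum was 19.3 to 30.9 in resting Tconvs, 3.54 or less in activated Tconvs and 0 in every Treg library. The part of these markers in the results was not tested. In bulk libraries, fewer cells that express a gene and less RNA per cell cannot be told apart.

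Changes were tested on log2(normalized count + 1) with limma. A gene was called changed at an adjusted p (Benjamini-Hochberg over all genes tested) below 0.05 together with a log2 difference above 0.5 in either direction. Fold changes of genes near the floor depend on the added 1, so levels are given for them.

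In the GRCm38 build with GENCODE vM21 annotation, Foxp3 lies at X:7573644-7595245 on the plus strand, Il2ra at 2:11642807-11693193 (plus), Lrrc32 at 7:98489283-98502181 (plus), Ebi3 at 17:55952640-55957022 (plus) and Il10 at 1:131019845-131024974 (plus). Gpr83 (9:14860210-14870789, plus) and Izumo1r (9:14885814-14903949, minus) are neighbours that face each other, with 15024 bases and no annotated gene lying wholly between them. Of the exon bases of Foxp3, 31.5% are also exonic in Ppp1r3f, Ccdc22, Flicr or Gm36995, and of those of Ebi3, 23.4% are exonic in the antisense gene Gm16712, so that reads from these stretches can be assigned to either gene. Ppp1r3f stood at 192.0 normalized counts or less and Ccdc22 at 427.8 or less in every library. In Tconvs, Ccdc22 had means of 357.1 at rest and 408.8 after activation, and Ppp1r3f of 49.2 and 21.8. The means of Foxp3 there were only 10.4 and 33.8. The part of shared reads in the Foxp3 values of Tconvs, and so in comparisons with them, was not tested. The exons of Il2ra, Lrrc32, Gpr83, Izumo1r and Il10 are shared with no other annotated gene.

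The 250 bases before the transcription start are shown for 2 surface receptors that differed in the inhibitor experiment: Gpr83, which fell with restimulation and was higher with CM-4620, and Il2ra, which was called in neither comparison. RefSeq promoters on GRCm38.p6 were matched for 5 of the 7 genes, that is, all but Lrrc32 and Il10. The stretch of Gpr83 is chr9:14859960-14860209 and that of Il2ra is chr2:11642542-11642791, both on the plus strand, and capitals mark the letters GGAAA, the core that NFAT proteins bind, on either strand.
Gpr83: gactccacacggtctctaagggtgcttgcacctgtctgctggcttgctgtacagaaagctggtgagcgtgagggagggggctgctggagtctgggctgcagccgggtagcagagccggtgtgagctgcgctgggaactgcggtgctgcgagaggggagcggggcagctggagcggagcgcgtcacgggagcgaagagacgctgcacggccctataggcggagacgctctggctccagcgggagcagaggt
Il2ra: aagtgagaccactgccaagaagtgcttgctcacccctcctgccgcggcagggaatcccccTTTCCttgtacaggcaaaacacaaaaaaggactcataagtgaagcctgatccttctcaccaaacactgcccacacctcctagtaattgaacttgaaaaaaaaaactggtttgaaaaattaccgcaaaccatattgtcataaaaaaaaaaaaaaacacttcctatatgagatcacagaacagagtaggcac

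GGAAA was not found in the Gpr83 stretch on either strand and was found 1 time in that of Il2ra. The same letters occur in 55.6% of 32851 RefSeq promoters over the same 250 bases, and in the stretches of Izumo1r, Ebi3 and each of the 2 Foxp3 entries they were found 1 time each. A match describes the letters and not a binding site.

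**Figure D1:**
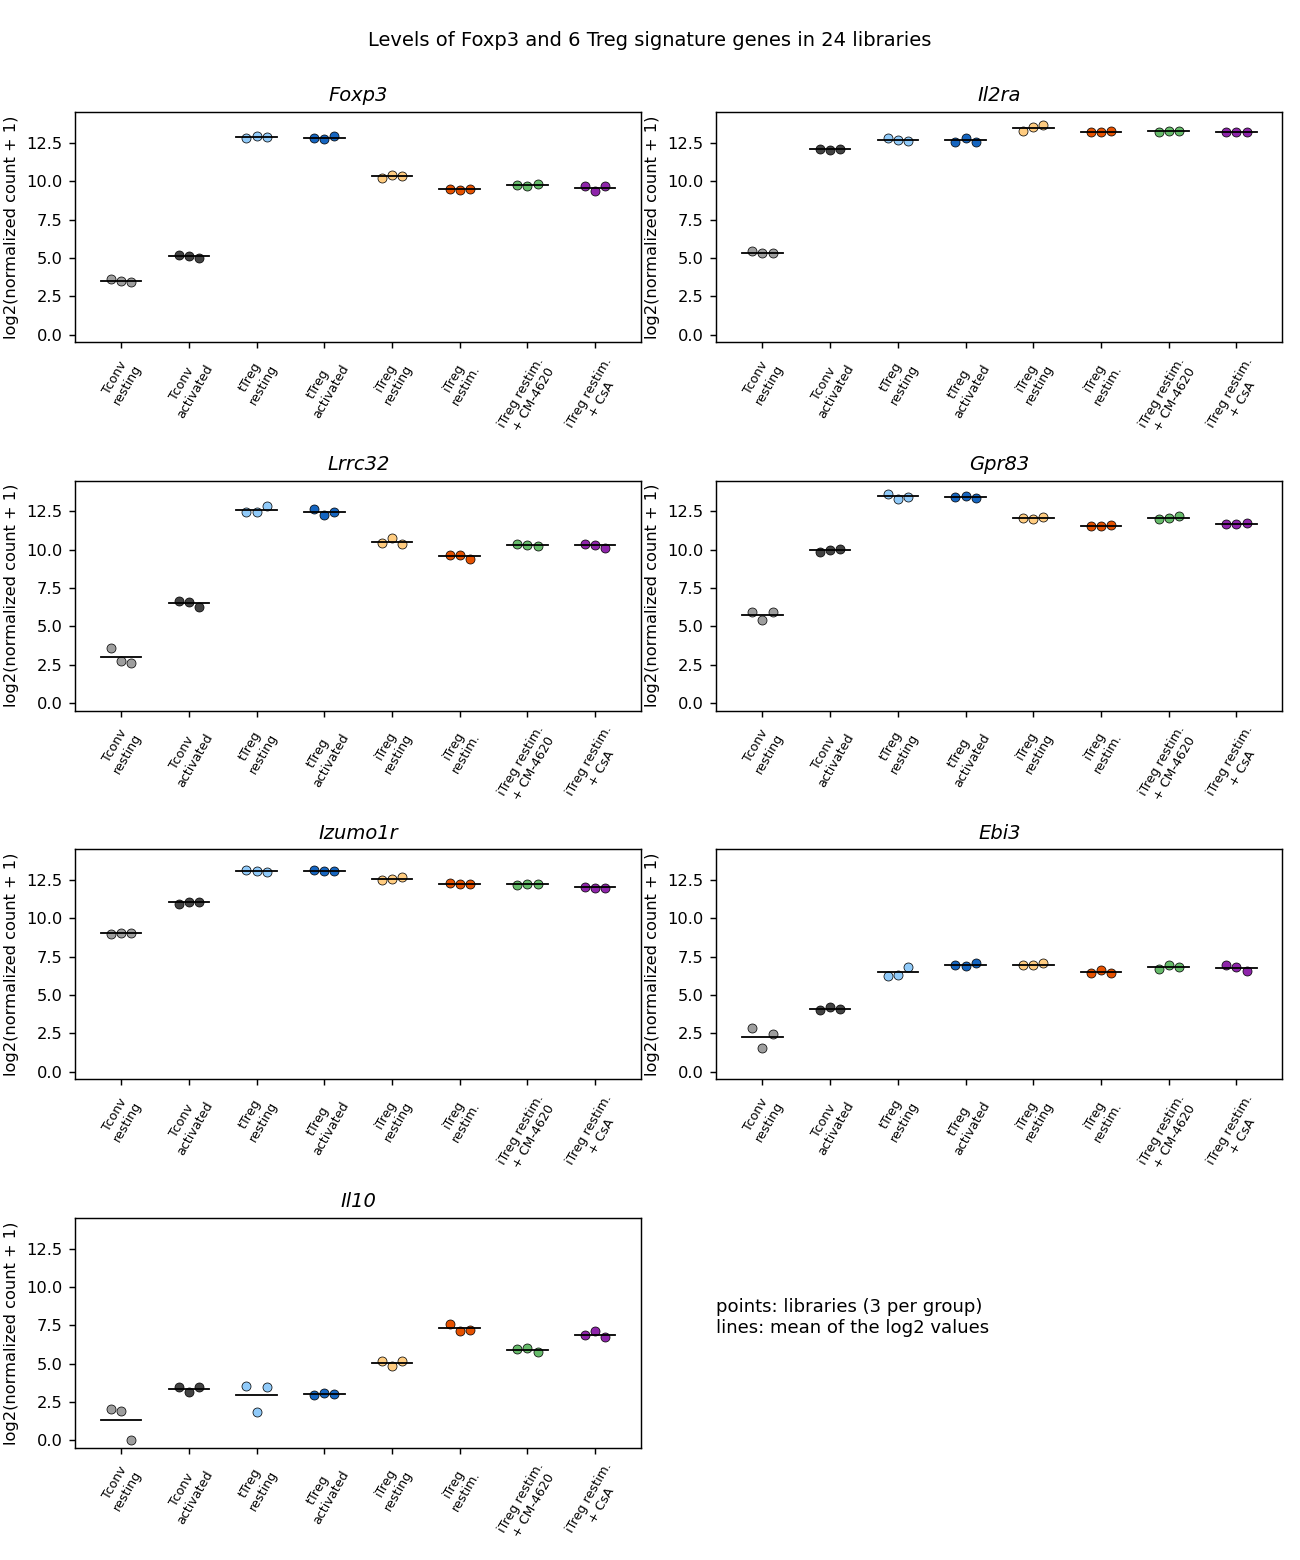
Level of each gene as log2(normalized count + 1) on the vertical axis in the 8 groups on the horizontal axis, with points for the 3 libraries of a group and a line at their mean. Foxp3, Lrrc32, Gpr83 and Izumo1r were highest in tTregs and Il2ra and Il10 in iTregs, while the mean of Ebi3 was nearly the same in resting iTregs (126.3) and activated tTregs (125.8).

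Foxp3 was the lineage gene on which the cells had been sorted, so its difference between Tregs and Tconvs was fixed by the sort. Its normalized counts were 11.3, 10.3 and 9.65 in resting Tconvs, 35.9, 34.5 and 31.1 in activated Tconvs, 7218, 7767 and 7627 in resting tTregs and 7171, 6815 and 7951 in activated tTregs. In iTregs they were 1178, 1338 and 1324 at rest, 705, 695 and 731 after restimulation, 847, 842 and 906 with CM-4620 and 815, 655 and 830 with CsA. The order of the means therefore ran from tTregs through resting iTregs and the restimulated iTregs down to activated and resting Tconvs. The libraries of resting and activated tTregs overlapped, as did those of restimulated iTregs with and without CsA. Those of CM-4620 and CsA were separate, as were those of activated and resting Tconvs. Among all genes, libraries did not overlap for 19.2% between CM-4620 and CsA and for 73.9% between activated and resting Tconvs. Foxp3 in resting iTregs stood at 17.0% of the mean in resting tTregs, although both had been sorted on the reporter.

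Il2ra encodes the α chain of the IL-2 receptor (CD25), which gives the receptor its high affinity. It ranged from 38.5 to 42.2 normalized counts in resting Tconvs and from 4290 to 4447 in activated Tconvs. tTregs held 6390 to 7315 at rest and 6001 to 7299 after activation. The highest values were those of resting iTregs, with 9978, 11697 and 13005. Restimulated iTregs held 9371, 9601 and 9824, and the values with CM-4620 (9499, 9835 and 9861) and with CsA (9602, 9553 and 9351) lay in the same range. Il2ra was thus the one surface gene of the 7 that was higher in iTregs than in tTregs, in every state.

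Lrrc32 encodes GARP, which anchors latent TGF-β at the cell surface. It had 11.3, 5.63 and 5.27 normalized counts in resting Tconvs and 101, 95.7 and 76.4 in activated Tconvs. tTregs held 5596, 5715 and 7271 at rest and 6483, 4923 and 5633 after activation. The values were 1381, 1718 and 1316 in resting iTregs, 798, 824 and 676 in restimulated iTregs, 1324, 1289 and 1207 with CM-4620 and 1348, 1288 and 1125 with CsA. All libraries of restimulated iTregs without inhibitor lay below those of the other 3 iTreg groups, which overlapped with each other. Among all genes, libraries of restimulation alone did not overlap with rest for 40.8%, with CM-4620 for 26.3% and with CsA for 28.9%.

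Gpr83 encodes a G protein-coupled receptor, and Izumo1r encodes folate receptor 4, a surface protein long used to mark Tregs. Gpr83 had 59.7, 42.2 and 60.6 normalized counts in resting Tconvs, 929, 1004 and 1074 in activated Tconvs, and 10282 to 12854 in tTregs of either state. In iTregs it had 4397, 4129 and 4558 at rest, 2960, 2952 and 3133 after restimulation, 4081, 4307 and 4623 with CM-4620 and 3340, 3350 and 3389 with CsA. The CM-4620 libraries overlapped with resting iTregs, and the CsA libraries lay between those of CM-4620 and of restimulation alone. Izumo1r was the member with the highest level in resting Tconvs, also per kilobase of exon, at 513, 532 and 535 normalized counts, and reached 1985, 2140 and 2190 in activated Tconvs and 8306 to 9180 in tTregs. Its values in iTregs were 5873, 6048 and 6488 at rest, 5078, 4858 and 4874 after restimulation, 4686, 4926 and 4766 with CM-4620 and 4189, 4120 and 4105 with CsA. Izumo1r was thus lowest among iTregs in the CsA libraries, which did not overlap with any other iTreg group. Among all genes, libraries did not overlap for 28.9% between CsA and restimulation alone and for 19.2% between CM-4620 and CsA. This share was not computed between CsA and rest.

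Ebi3 encodes the subunit that pairs with the product of Il12a in IL-35 and with the product of Il27 in IL-27, and Il10 encodes the suppressive cytokine IL-10. Ebi3 had 6.17, 1.88 and 4.39 normalized counts in resting Tconvs and 15.3, 17.2 and 16.3 in activated Tconvs. In tTregs it had 75.3, 79.2 and 114 at rest and 124, 119 and 134 after activation, and in iTregs it had 121, 121 and 137 at rest, 85.6, 96.4 and 86.3 after restimulation, 102, 125 and 114 with CM-4620 and 122, 114 and 95.2 with CsA. All 6 Treg groups overlapped with their neighbours in the order of means, and none of their libraries reached down to the Tconv values. Both partner genes of Ebi3 were at or near 0. Il27 was at 0 in all 24 libraries, and Il12a did not exceed 1.01 normalized counts in any library.

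Il10 was the member whose pattern over the libraries was least like that of Foxp3. It rested on 3, 3 and 0 reads in resting Tconvs, 11, 9 and 14 in activated Tconvs, 12, 2 and 9 in resting tTregs and 5, 8 and 4 in activated tTregs. None of these 12 libraries exceeded 10.9 normalized counts. Too few of them reached 10 for the filter, so Il10 passed it only through iTregs. iTregs held 34.8, 28.2 and 34.9 normalized counts at rest, 186, 139 and 148 after restimulation, 61.2, 65.1 and 52.6 with CM-4620 and 113, 138 and 103 with CsA. The 4 iTreg groups did not overlap with each other, and the lowest iTreg library was above every Tconv and tTreg library. Among all genes, libraries did not overlap for 40.8% between restimulated and resting iTregs. The share was 26.3% for CM-4620 and 28.9% for CsA against restimulation alone, and 19.2% between the inhibitors. For resting iTregs it was 80.5% against resting and 67.7% against activated Tconvs. It was not computed for the inhibitor groups against rest or for the other pairs. The highest CsA library of Il10 (137.5) lay just below the lowest of restimulation alone (139.0), and this comparison was not called (adjusted p = 0.131).

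Per kilobase of annotated exon, the genes could also be compared with each other. In resting tTregs, Izumo1r was at 3720 normalized counts per kilobase (SD 154, n = 3), Gpr83 at 2250 (SD 254), Foxp3 at 1650 (SD 62.4), Lrrc32 at 1320 (SD 199), Il2ra at 1180 (SD 86.6), Ebi3 at 77.5 (SD 18.4) and Il10 at 6.04 (SD 3.52). In resting iTregs, Izumo1r (2640, SD 137) and Il2ra (2020, SD 266) led, and Foxp3 (280, SD 19.3) and Lrrc32 (314, SD 46.1) were far below them. The secreted subunits were the lowest in both cell types, although Il10 after restimulation of iTregs (120, SD 19.2 per kilobase) passed Ebi3 (77.5, SD 5.23). These levels assume that the annotated exons are the transcribed ones.

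Activation was compared first in Tconvs and tTregs. In Tconvs, all 7 genes were called higher after activation, and no library of the resting group overlapped with the activated group for any of them. Here 50.2% of 11495 genes were called in either direction, 24.5% higher, and the libraries of 73.9% of genes did not overlap. Il2ra rose most, by 6.74 on the log2 scale (SE 0.10, adjusted p = 6.58e-16), followed by Gpr83 with 4.20 (SE 0.12, adjusted p = 1.09e-12) and Lrrc32 with 3.51 (SE 0.22, adjusted p = 3.21e-09). Izumo1r rose by 2.00 (SE 0.07, adjusted p = 4.57e-12) and Foxp3 by 1.61 (SE 0.09, adjusted p = 1.66e-09). Activated Tconvs nevertheless reached different shares of the activated tTreg mean, with 67.0% for Il2ra, 23.8% for Izumo1r, 9.03% for Gpr83, 1.60% for Lrrc32 and 0.463% for Foxp3. Ebi3 (adjusted p = 3.11e-05) and Il10 (adjusted p = 0.00343) were called as well, from levels close to the floor at rest, where Lrrc32 and Foxp3 also rested on 6 to 11 reads per library. Il10 entered this fit only through resting iTregs, as no Tconv library reached 10 normalized counts. The part of reads from exons shared with Ccdc22 or Ppp1r3f in the rise of Foxp3 was not tested.

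In tTregs, none of the 7 genes was called after activation, against 21.9% of 11495 genes. The log2 differences of Foxp3, Il2ra, Lrrc32, Gpr83 and Izumo1r lay between -0.12 and 0.04. The 95% confidence interval ran from -0.25 to 0.15 for Foxp3, from -0.27 to 0.15 for Il2ra, from -0.59 to 0.34 for Lrrc32, from -0.31 to 0.22 for Gpr83 and from -0.11 to 0.18 for Izumo1r. Each of these intervals except that of Lrrc32 lay within 0.5 in both directions. With quantile scaling the differences were more negative, at -0.27 for Foxp3 (adjusted p = 0.034), -0.20 for Izumo1r (0.0315), -0.30 for Il2ra (0.0668), -0.29 for Gpr83 (0.0831) and -0.34 for Lrrc32 (0.204), and none of them passed the size threshold. Beside this count of 0 from limma, no member had an unadjusted p below 0.05, and edgeR and DESeq2 on the recovered reads called 0 of the 7 genes as well. For Ebi3, the log2 difference of 0.51 (95% interval -0.07 to 1.09) was not called (adjusted p = 0.159), although its libraries, like those of 37.8% of genes, did not overlap, with 75.3 to 114 at rest and 119 to 134 after activation. Il10 rested on 2 to 12 reads per library in tTregs, and its interval ran from -1.05 to 1.17.

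The difference between both responses was tested directly as an interaction. All 7 genes were called with a smaller response in tTregs than in Tconvs, against 34.7% of genes called in either direction and 17.0% in that direction. This interaction equals the activated gap minus the resting gap between both cell types. The resting gap was fixed by the sort for Foxp3 and largely set by the choice of the other genes, so their shared direction is not an independent result. Il10 was among them only because resting iTregs carried it through the filter. The difference was -6.80 for Il2ra (SE 0.14, adjusted p = 8.55e-14), -4.24 for Gpr83 (SE 0.17, adjusted p = 1.98e-10), -3.64 for Lrrc32 (SE 0.31, adjusted p = 4.06e-07), -1.96 for Izumo1r (SE 0.10, adjusted p = 1.15e-09) and -1.65 for Foxp3 (SE 0.13, adjusted p = 2.25e-07). The difference for Ebi3 was -1.33 (SE 0.38, adjusted p = 0.0126), with 2 to 6 reads per resting Tconv library behind it, and it was -0.75 with a pseudocount of 5. That of Il10 (adjusted p = 0.0467) rested on few reads and was not called with the replicate number as a block (adjusted p = 0.0571), a pseudocount of 0.1 (0.0973), no filter (0.0663) or without any one of 9 of the 12 libraries, namely replicate 3 of the resting Tconvs, replicates 1 and 3 of the resting tTregs, and each library of activated Tconvs and of activated tTregs.

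**Figure D2:**
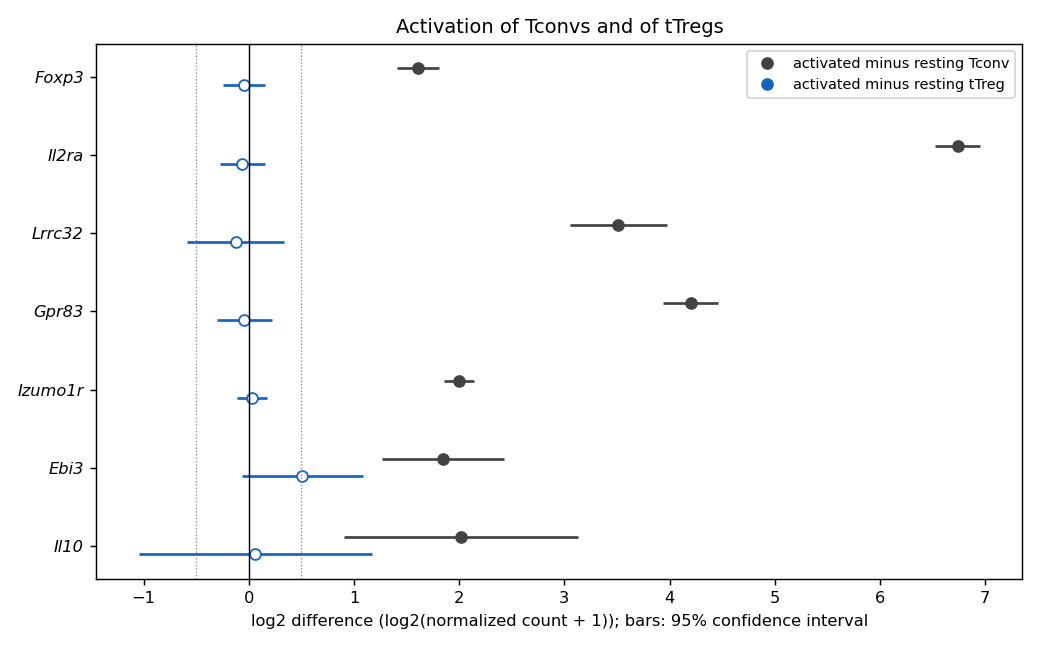
Log2 difference between activated and resting cells on the horizontal axis for each gene on the vertical axis, in Tconvs (dark) and tTregs (blue), with 95% confidence intervals; filled points were called and dotted lines mark a difference of 0.5. All 7 differences in Tconvs are filled and lie at 1.61 or above, and all 7 in tTregs are open and lie between -0.12 and 0.51.

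Between both cell types, 7 of 7 genes were called higher in resting tTregs than in resting Tconvs (38.6% of genes called in either direction, 20.5% higher). Of these, the call of Foxp3 was fixed by the sort. The others were chosen as Treg signature genes with earlier results of these data known, so their direction was largely set by the choice. Lrrc32 differed by 9.59 on the log2 scale (SE 0.22, adjusted p = 5.78e-14), Gpr83 by 7.71 (SE 0.12, adjusted p = 1.08e-15), Il2ra by 7.37 (SE 0.10, adjusted p = 2.66e-16) and Izumo1r by 4.03 (SE 0.07, adjusted p = 1.69e-15). The difference for Ebi3 was 4.21 (SE 0.27, adjusted p = 7.46e-09), from 13 reads in all 3 resting Tconv libraries. Il10 passed the filter of this fit only through resting iTregs. Il10 was called (adjusted p = 0.0154) on levels of 0 to 10.9 normalized counts that overlapped between the groups, and it was not called with quantile scaling (adjusted p = 0.113), without replicate 3 of the resting Tconvs (adjusted p = 0.0848) or without replicate 1 (0.0623) or 3 (0.0612) of the resting tTregs.

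After activation of both cell types, 6 of 7 genes were called higher in tTregs, against 48.2% of genes called in either direction and 25.6% higher. Here too, Foxp3 was fixed by the sort and the direction of the others was largely set by the choice. The gap had narrowed to 0.57 for Il2ra (SE 0.10, adjusted p = 0.000179), and without the second activated tTreg library it fell below the threshold at 0.48. It was 5.95 for Lrrc32 (SE 0.22), 3.47 for Gpr83 (SE 0.12), 2.07 for Izumo1r (SE 0.07) and 2.88 for Ebi3 (SE 0.27), with adjusted p of 4.42e-07 or less. Il10 had 6.73 to 7.57 normalized counts in activated tTregs and 7.76 to 9.91 in activated Tconvs and was not called (adjusted p = 0.624).

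Resting iTregs were higher than resting Tconvs in 7 of 7 genes (63.6% of genes called in either direction, 32.8% higher). They were also higher than activated Tconvs in 7 of 7 (41.6% called, 22.9% higher). The libraries of all 7 genes did not overlap in either comparison, and neither did those of 80.5% of all genes against resting and 67.7% against activated Tconvs. Against activated Tconvs, which had likewise received antibody stimulation, the log2 differences were 4.00 for Lrrc32 (SE 0.22, adjusted p = 1.12e-09), 2.88 for Ebi3 (SE 0.27, adjusted p = 4.53e-07), 2.12 for Gpr83 (SE 0.12, adjusted p = 2.28e-09), 1.54 for Izumo1r (SE 0.07, adjusted p = 1.11e-10) and 1.40 for Il2ra (SE 0.10, adjusted p = 2.38e-08). Il10 differed by 1.73 (SE 0.52, adjusted p = 0.011) and was not called with quantile scaling (adjusted p = 0.0987) or a pseudocount of 0.1 (0.14). Foxp3 was again fixed by the sort. The other genes were chosen as Treg signature genes with earlier results of these data known, so their shared direction is not an independent result. Il10 passed the filter of this fit only through resting iTregs.

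Against resting tTregs, resting iTregs were lower in 3 genes, higher in 2 and not called in 2, where 63.4% of genes were called. Foxp3 was lower by a log2 difference of -2.56 (SE 0.09, adjusted p = 5.71e-12), Lrrc32 by -2.07 (SE 0.22, adjusted p = 5.51e-07) and Gpr83 by -1.39 (SE 0.12, adjusted p = 8.64e-08). Il2ra was higher by 0.77 (SE 0.10, adjusted p = 5.83e-06), a call that was lost when libraries were scaled by quantiles (0.40) or to equal totals (0.46), and Il10 was higher (adjusted p = 0.00203), at 28.2 to 34.9 against 2.60 to 10.9 normalized counts, but not with a pseudocount of 0.1 (adjusted p = 0.0539). Izumo1r stopped just short of the size threshold at -0.49 (SE 0.07, adjusted p = 9.19e-06), and passed it with quantile scaling (-0.98), with equal totals (-0.81) and without replicate 3 of the resting iTregs (-0.53) or of the resting tTregs (-0.52). Ebi3 was at 126.3 in iTregs and 89.4 in tTregs on average and was not called (log2 difference 0.52, SE 0.27, adjusted p = 0.0992), although edgeR (adjusted p = 0.017) and DESeq2 (0.0243) on the recovered reads called it, as did limma without replicate 3 of the resting tTregs (0.70, adjusted p = 0.0452), in a fit of both groups alone (0.0393) and in one of all 24 libraries (0.0464).

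Both Treg types were also compared after stimulation. Restimulated iTregs were lower than activated tTregs in 4 of 7 genes and higher in 2, against 59.3% of genes called. The differences were -3.36 for Foxp3 (SE 0.09, adjusted p = 6.84e-18), -2.89 for Lrrc32 (SE 0.19, adjusted p = 1.08e-11), -1.88 for Gpr83 (SE 0.10, adjusted p = 7.8e-13) and -0.84 for Izumo1r (SE 0.05, adjusted p = 1.08e-11). Il10 was higher, at 139 to 186 against 6.73 to 7.57 normalized counts (log2 difference 4.27, SE 0.42, adjusted p = 9.91e-09), and Il2ra was higher by 0.57 (SE 0.08, adjusted p = 2.53e-06), which fell to 0.42 with quantile scaling and 0.36 with equal totals. Ebi3 had a difference of -0.49 (SE 0.23, adjusted p = 0.0603) and was called with quantile scaling (-0.64), equal totals (-0.70) and edgeR (-0.51). Foxp3 in restimulated iTregs stood at 9.71% of the activated tTreg mean, Lrrc32 at 13.5%, Gpr83 at 27.1% and Izumo1r at 55.8%.

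**Figure D3:**
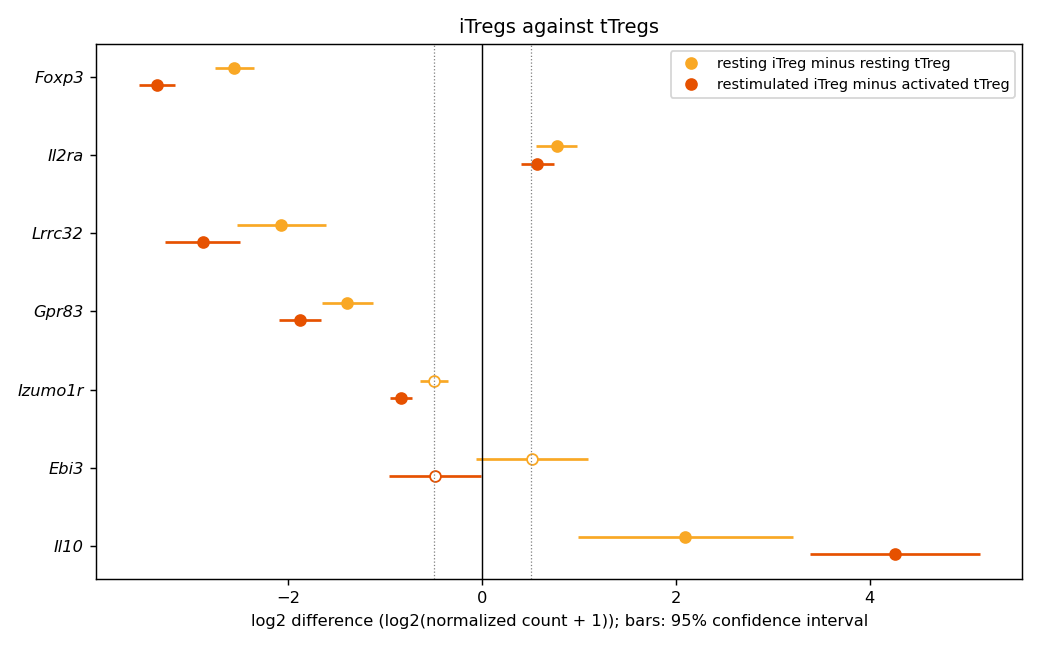
Log2 difference between iTregs and tTregs on the horizontal axis for each gene on the vertical axis, at rest (yellow) and after stimulation (orange), with 95% confidence intervals; filled points were called and dotted lines mark a difference of 0.5. Foxp3, Lrrc32 and Gpr83 lie to the left of -1.39 or on it in both states, and Il10 is the farthest to the right (2.10 at rest and 4.27 after stimulation).

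Restimulation of iTregs lowered 3 of the 7 genes and raised 1, against 12.8% of 11105 genes called. Foxp3 fell by 0.85 on the log2 scale (SE 0.08, adjusted p = 3.57e-06), to 55.5% of its resting mean. Lrrc32 fell by 0.94 (SE 0.10, adjusted p = 7.53e-06), to 52.0%, and Gpr83 fell by 0.53 (SE 0.06, adjusted p = 6.37e-06), to 69.1%. Without replicate 3 of the resting iTregs, the change of Gpr83 was -0.499 and just missed the size threshold. Il10 rose by 2.23 (SE 0.16, adjusted p = 1.12e-07), to 483% of its resting mean.

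The other 3 genes were lower in all restimulated libraries than in any resting library but by less than the size threshold, and the libraries of 40.8% of all genes did not overlap in this comparison. Ebi3 had a log2 difference of -0.49 (SE 0.13, adjusted p = 0.00838), Izumo1r of -0.31 (SE 0.05, adjusted p = 0.000277) and Il2ra of -0.26 (SE 0.07, adjusted p = 0.0141). Without the first or the second resting library, or without the second restimulated library, Ebi3 passed the threshold (-0.52 to -0.55), as it did with equal totals (-0.515). The erythroid sum named above also differed between both groups, at 23.2 to 30.3 in resting and 1.82 to 5.60 in restimulated libraries.

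Whether the response to stimulation itself differed between iTregs and tTregs was tested as an interaction across all 24 libraries. Of the 7 genes, 3 were called with a more negative response in iTregs and 1 with a more positive one, against 21.3% of genes called. Foxp3 differed by -0.80 (SE 0.13, adjusted p = 8.11e-05), Ebi3 by -1.004 (SE 0.32, adjusted p = 0.0249) and Lrrc32 by -0.81 (SE 0.26, adjusted p = 0.026), whereas Il10 differed by 2.17 (SE 0.60, adjusted p = 0.00962). For Izumo1r (-0.35, adjusted p = 0.00193) and Gpr83 (-0.49, adjusted p = 0.0168) the difference was below the size threshold, although Gpr83 was called (-0.52 to -0.57) without resting iTreg replicate 2, restimulated iTreg replicate 3, resting tTreg replicate 1 or activated tTreg replicate 3, and for Il2ra it was -0.20 (95% interval -0.44 to 0.04, adjusted p = 0.218). Lrrc32 lost its call without resting iTreg replicate 2, restimulated iTreg replicate 3, resting tTreg replicate 1 or 2 or activated tTreg replicate 1 (adjusted p between 0.0551 and 0.0753), and Ebi3 without resting iTreg replicate 3, resting tTreg replicate 1 or 2 or activated tTreg replicate 3 (0.0509 to 0.0622). With quantile scaling Foxp3 differed by -0.52 (adjusted p = 0.00369) and Lrrc32 was not called (-0.54, adjusted p = 0.102), nor was Lrrc32 with equal totals (-0.71, adjusted p = 0.0518). Ebi3 (adjusted p = 0.0557) and Il10 (0.183) were not called with a pseudocount of 0.1.

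CM-4620 was added to ask which part of the change rests on calcium entry. Compared with restimulation alone, 2 of the 7 genes were higher, 1 was lower and 4 were not called, against 3.3% of genes called. Lrrc32 was higher by 0.74 (SE 0.10, adjusted p = 0.000346), at 86.5% of its resting mean, and Gpr83 by 0.52 (SE 0.06, adjusted p = 4.78e-05), at 99.4%, although the difference of Gpr83 was 0.48 without replicate 3 of the CM-4620 group. Il10 was lower by a log2 difference of -1.38 (SE 0.16, adjusted p = 7.83e-05), at 183% of its resting mean, a call that was lost when all 24 libraries were fitted together (adjusted p = 0.0809).

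Foxp3 was higher with CM-4620 in 3 of 3 libraries than in any library of restimulation alone, at 842 to 906 against 695 to 731, and the libraries of 26.3% of all genes did not overlap. The log2 difference was 0.28 (SE 0.08, 95% interval 0.10 to 0.47, adjusted p = 0.0568) and was not called. Over the 18 alternatives it stayed between 0.25 and 0.31, with adjusted p between 0.0199 and 0.169, 4 of them below 0.05, and no alternative called it. Ebi3 had a difference of 0.34 (95% interval 0.07 to 0.61, adjusted p = 0.127), and Il2ra (0.02, 95% interval -0.14 to 0.18) and Izumo1r (-0.04, 95% interval -0.15 to 0.06) overlapped with restimulation alone.

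With CsA, 1 of the 7 genes was called higher than in restimulation alone and none lower, against 2.92% of genes called. Lrrc32 was higher by 0.71 (SE 0.10, adjusted p = 0.000608), at 85.2% of its resting mean. Foxp3 was not called (0.10, 95% interval -0.08 to 0.28, adjusted p = 0.532), and the second CsA library (655) lay below all 3 restimulated libraries. The libraries of Gpr83, like those of 28.9% of all genes, did not overlap with restimulation alone (0.16, 95% interval 0.03 to 0.28, adjusted p = 0.11). Izumo1r went the other way, with a difference of -0.26 (SE 0.05, adjusted p = 0.00569) that did not reach the size threshold. Il10 was at -0.41 (95% interval -0.76 to -0.07, adjusted p = 0.131). Ebi3 (0.29, 95% interval 0.02 to 0.56, adjusted p = 0.177) and Il2ra (-0.01, 95% interval -0.17 to 0.14) overlapped with restimulation alone.

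CM-4620 and CsA were compared directly, and 1 of 7 genes was called, against 0.36% of genes. Il10 was lower with CM-4620 than with CsA by a log2 difference of -0.97 (SE 0.16, adjusted p = 0.00739), which was not called without the second CsA library (adjusted p = 0.0563) or with all 24 libraries in one fit (0.745). Gpr83 was higher with CM-4620 by 0.37 (SE 0.06, adjusted p = 0.0046), below the size threshold, and its libraries, like those of 19.2% of all genes, did not overlap. Izumo1r was higher with CM-4620 by 0.21 (SE 0.05, adjusted p = 0.0724) and was not called, although its libraries did not overlap either. For Lrrc32 the difference was 0.03 (95% interval -0.19 to 0.24) and for Foxp3 0.18 (95% interval 0.00 to 0.36, adjusted p = 0.45).

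Neither inhibitor group was at the resting level for Foxp3 or Il10. Against resting iTregs, CM-4620 libraries were lower in Foxp3 (-0.56, SE 0.08, adjusted p = 0.000363) and higher in Il10 (0.85, SE 0.16, adjusted p = 0.00179, and 0.241 with all 24 libraries in one fit), and the other 5 genes were not called, against 7.1% of genes. Of these, Izumo1r (-0.36, adjusted p = 0.000191) and Il2ra (-0.24, adjusted p = 0.0329) were lower by less than the size threshold, and Gpr83 had a difference of -0.01 (95% interval -0.13 to 0.11) and Lrrc32 of -0.20 (95% interval -0.42 to 0.02). CsA libraries were lower than resting iTregs in Foxp3 (-0.75, SE 0.08, adjusted p = 2.18e-05) and Izumo1r (-0.57, SE 0.05, adjusted p = 1.5e-06) and higher in Il10 (1.82, SE 0.16, adjusted p = 1.41e-06), with 4 of 7 not called, against 9.43% of genes. Of those 4, Gpr83 (-0.375, adjusted p = 0.000272) and Il2ra (-0.274, adjusted p = 0.013) were lower by less than the size threshold. Lrrc32 (-0.225, adjusted p = 0.125) and Ebi3 (-0.20, adjusted p = 0.274) overlapped with rest. The comparisons of this experiment share their resting and restimulated libraries, so their values are not independent of each other.

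**Figure D4:**
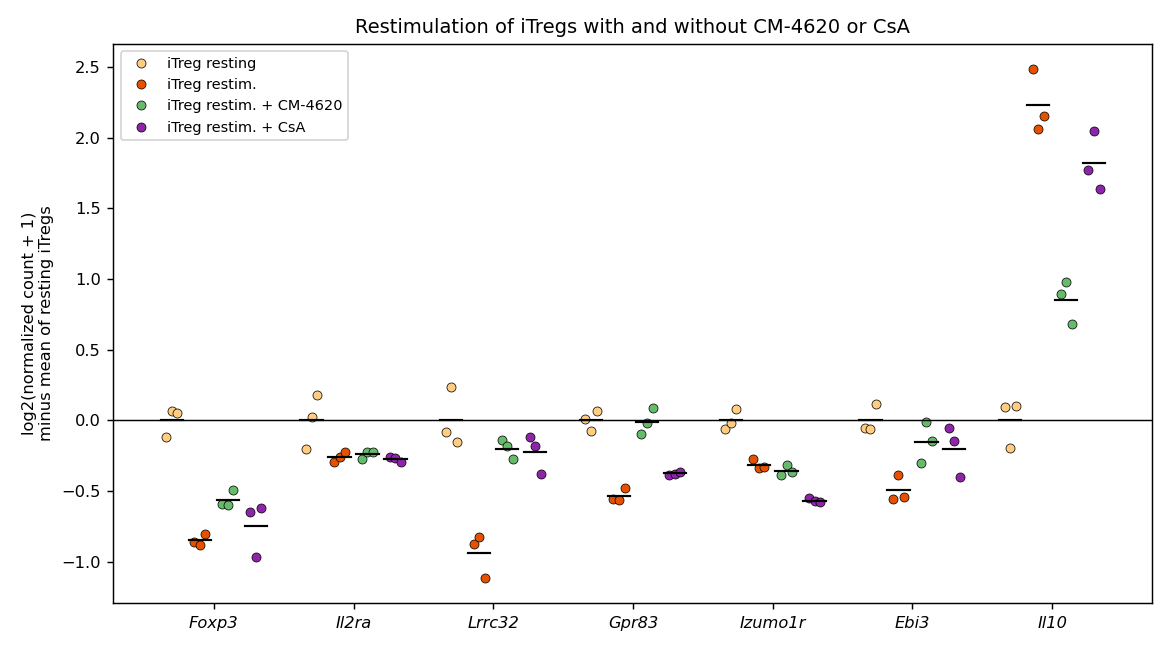
Log2(normalized count + 1) minus the mean of resting iTregs on the vertical axis for each gene on the horizontal axis, with points for the 3 libraries of each of the 4 iTreg groups and a line at their mean. Restimulation alone lies below the other groups for Lrrc32 and above them for Il10, Foxp3 lies below the resting level in all 9 restimulated libraries, and the CsA points of Izumo1r lie lowest for that gene.

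Other genes that are part of the Treg signature, that work with the products of the 7 genes, or that regulate Foxp3 were counted from 3 lists. Of 22 other Treg signature genes, 20 were called higher and 0 lower in resting tTregs than in resting Tconvs, where 20.5% of all genes were higher and 18.2% lower, with a median log2 difference of 3.50 against -0.02 over all genes. The list was chosen as Treg signature genes with earlier results of these data known, so this direction was largely set by the choice. Tnfrsf9, the costimulatory receptor 4-1BB, differed by 7.92 (adjusted p = 7.25e-14) and Ikzf2, which encodes the transcription factor Helios, by 5.58 (adjusted p = 6.95e-14). In resting iTregs compared with resting tTregs, 15 of these 22 were lower and 4 higher (31.1% and 32.3% of all genes), with a median of -1.56 against 0.02 over all genes. Ikzf2 was lower by a log2 difference of -5.81 (adjusted p = 8.18e-14), at 167.0 against 9403 normalized counts, and Klrg1, an inhibitory receptor, stood at 1.2 against 229.5, while Lag3, a co-inhibitory receptor, was higher by 3.69 (adjusted p = 7.35e-07) and Penk by 1.55 (adjusted p = 1.19e-06).

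Activation called 11 of the 22 higher and 8 lower in Tconvs, against 50.2% of all genes in either direction, and 6 higher and 0 lower in tTregs, near the 21.9% of all genes. Lag3 rose in both, by 4.98 in Tconvs (adjusted p = 4.95e-08) and by 2.86 in tTregs (adjusted p = 0.000101), while Fgl2, which encodes a secreted suppressive protein, was lower in activated Tconvs, at 0.862 to 5.66 against 23.7 to 48.3 normalized counts (adjusted p = 3.15e-06). Restimulation of iTregs called 6 of 20 tested higher and 1 lower (12.8% of all genes in either direction), with a median of 0.27 against -0.01 over all genes. The inhibitory receptor gene Tigit rose by 1.40 (adjusted p = 1.25e-05) and Cd83 by 1.37 (adjusted p = 0.000159), and Nrp1, which encodes neuropilin-1, fell by 1.15 (adjusted p = 2.99e-06). With CM-4620, 2 of the 20 were higher than in restimulation alone and 4 lower, and with CsA 2 were higher and 2 lower, against 3.3% and 2.92% of all genes. Tnfrsf9 was lower with both, by a log2 difference of -1.06 with CM-4620 (adjusted p = 3.22e-06) and -0.88 with CsA (adjusted p = 2.51e-05), and Fgl2 was higher with both (1.29, adjusted p = 0.036, and 2.25, adjusted p = 0.00124).

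Among partners of the 7 products, 12 of 15 were tested, and Il2, Il12a and Il27 were too low. Il2rb, the β chain that pairs with CD25, was called higher in resting tTregs (15575 normalized counts) than in resting Tconvs (939.5), with a log2 difference of 4.05 (adjusted p = 4.85e-14), and rose by 2.99 when Tconvs were activated (adjusted p = 1.47e-12). Itgb8, the integrin subunit that frees TGF-β from the complex held by GARP, was at 810.2 normalized counts (SD 126.5) in resting tTregs and 6.89 (SD 1.55) in resting iTregs, a log2 difference of -6.69 (adjusted p = 3e-11). Nrros, another protein that binds latent TGF-β, fell by 1.27 upon restimulation of iTregs (adjusted p = 6.59e-07), at 195.5 against 470.1, and was higher by 0.53 with CsA than without (adjusted p = 0.0069). Its mean was 280.7 with CsA and 271.2 with CM-4620. With CM-4620 it was not called against restimulation alone or against CsA. Restimulation called 2 of 12 partners higher and 2 lower, against 12.8% of all genes in either direction. Il12rb2, a receptor chain used by IL-12, rose by 2.56 (adjusted p = 1.85e-10) and was lower with CM-4620 (-0.73, adjusted p = 0.00028) and with CsA (-0.55, adjusted p = 0.00318) than in restimulation alone.

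Of 19 regulators of Foxp3, 5 were higher and 11 lower in resting iTregs than in resting tTregs (32.3% and 31.1% of all genes), with a median of -0.86 against 0.02 over all genes. Rel, the NF-κB subunit c-Rel, was lower by a log2 difference of -3.96 (156.9 against 2454.5 normalized counts, adjusted p = 1.55e-13), and Uhrf1 (5.48, adjusted p = 2.94e-13) and Dnmt1 (1.89, adjusted p = 3.49e-10), which maintain DNA methylation, were higher. Restimulation called 2 of the 19 higher and 1 lower in iTregs, close to the 12.8% of all genes. Nr4a3 rose by 1.22 (adjusted p = 0.00351) and Nr4a1 by 0.73 (adjusted p = 0.0134), both encoding nuclear receptors induced by T cell receptor signals, and Cbfb, the partner of RUNX factors, fell by 0.70 (adjusted p = 2.54e-05). With CM-4620, Nr4a3 (-1.32, adjusted p = 0.00736) and Nr4a1 (-0.82, adjusted p = 0.0212) were lower than in restimulation alone, and with CsA Nr4a3 was (-1.02, adjusted p = 0.0332). No other of the 19 was called in those 2 comparisons, where 3.3% and 2.92% of all genes were.

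The genes whose pattern was most like that of each member were ranked by Pearson correlation of log2 values over the 24 libraries, among 11725 genes. The points share libraries and groups, and the values are descriptions. Nearest to Foxp3 were Ecm1 (r = 0.984), Lrrc32 (0.979) and P2rx7 (0.978). Lrrc32 was nearest to Ecm1 (0.983), Izumo1r (0.981) and Gpr83 (0.981), and the neighbouring genes Gpr83 and Izumo1r were each other's first (0.992), followed by Lrrc32 for both (0.981) and by Notch2 (0.979) and Itih5 (0.972), respectively. Il2ra was nearest to Treml2 (0.986), Icos (0.984) and Bcl2 (0.983), and Ebi3 to Coro2a (0.989), Dclk2 (0.984) and Socs2 (0.978). Il10 was nearest to Kremen2 (0.965), Lgals7 (0.964) and Bhlhe40 (0.960), and its correlation with Foxp3 was 0.293, the lowest between any 2 members.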

How the data were processed

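RNA-seq (modified Smart-seq2) was analysed in 24 libraries. Per the study's methods and processing notes, the authors trimmed reads with Cutadapt 1.18, aligned them to mm10 with STAR 2.5.3, quantified genes with RSEM 1.3.0 and normalized with DESeq2 1.26. The deposited signal is gene counts divided by a size factor per library. Every value above 0 was a whole multiple of the smallest in its column (100% within 0.01 reads), which gave reads. Their strand setting was not given in the sources used here.

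A gene entered a fit where 3 or more of its libraries reached 10 normalized counts. Tests used limma 3.58.1 (trend) on log2(value + 1) in 3 fits: 15 Tconv, tTreg and resting iTreg libraries, 12 iTreg libraries, and all 24 for iTregs against stimulated tTregs. Called genes had adjusted p below 0.05 and a log2 difference over 0.5, as in the study. The fit was tried on simulated counts with the same dispersion for all genes and changes only in well-expressed genes. It recovered 99 or 100 of each 100 changed genes. There were 18 false calls for resting tTregs against resting Tconvs and 4 for restimulated against resting iTregs. Changes in genes near the floor and unequal spread between groups were not covered. edgeR 4.0.16 and DESeq2 1.42.0 on recovered reads (R 4.3.3), other scalings, pseudocounts and filters, and libraries left out were alternatives. Scaling to equal totals was chosen after seeing the data. The 7 genes, the lists and the naming rule (each member, up to 2 rises and 2 falls of a list per comparison described, 3 most alike genes) were chosen with earlier results of these data known. Il12a, Il27, Itgb8, Nrros and a few list genes followed across comparisons were named after their values were seen. No pair of same-numbered libraries was taken as paired. ATAC-seq and CUT&Tag samples were not used here.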

Additional observations from a re-analysis of the deposited data

Results flagged for a closer look

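Differences between groups in the same response were tested as interaction terms, and those called for a member are collected here. For activation, tTregs minus Tconvs, the log2 differences were -6.80 for Il2ra, -4.24 for Gpr83, -3.64 for Lrrc32, -1.96 for Izumo1r, -1.96 for Il10, -1.65 for Foxp3 and -1.33 for Ebi3. For stimulation, iTregs minus tTregs, they were -1.0 for Ebi3, -0.81 for Lrrc32, -0.80 for Foxp3 and 2.17 for Il10. In the first set, the sign follows in part from the resting gap between tTregs and Tconvs. The sort fixed that gap for Foxp3, and the choice of genes largely set it for the others. The values of Il10 in both sets rest on 2 to 12 reads per tTreg library, and Il10 passed the filter only through iTregs. In the first set that of Il10 also rests on 3, 3 and 0 reads in resting Tconvs, and it was called in 10 of 22 alternatives. The value of Ebi3 in the first set rests on 2 to 6 reads per resting Tconv library. With 3 libraries in each group, single libraries were not tested as outliers.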

How the results depend on the processing

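Of 112 member results, 20 changed their call and 10 their sign under at least 1 alternative, and the changed calls stand beside their results above. The cause of these changes was not tested. Counts of called genes moved by over 1.5 times in these cases. A filter of 100 normalized counts, which tests fewer genes, gave 878 for restimulated against resting iTregs (1425 as reported), 213 for CsA against restimulation (324), 479 for CM-4620 against rest (789) and 654 for CsA against rest (1047). One fit of all 24 libraries gave 232 for CM-4620 against restimulation (366), 187 for CsA against restimulation and 10 for CM-4620 against CsA (40), and that last count was 26 to 30 with 1 library left out, lowest without replicate 1 of the CsA group.

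Sign changes were limited to differences that were not called. For activated against resting tTregs, quantile scaling gave -0.198 for Izumo1r and -0.145 for Il10, equal totals gave -0.087 and -0.040, and Il10 was at -0.008 with a pseudocount of 5, -0.196 with edgeR and -0.184 with DESeq2. With 1 library left out, this contrast ran from -0.108 to 0.003 for Foxp3, -0.12 to 0.041 for Gpr83 and -0.499 to 0.363 for Il10. Quantile scaling gave -0.032 for Il2ra with CM-4620 against restimulation and 0.015 for Il2ra in the response of iTregs minus tTregs. With 1 library left out, Il2ra with CsA against restimulation ran from -0.032 to 0.002, CM-4620 against CsA from -0.05 to 0.08 for Lrrc32 and from -0.055 to 0.122 for Ebi3, and Gpr83 with CM-4620 against rest from -0.056 to 0.034.

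Scaling moved the median of all genes by over 0.1 (log2) in several comparisons. Equal totals shifted it by -0.122 for activated against resting tTregs (34.9% of called genes higher, 54.3% as reported), 0.26 for resting tTregs against Tconvs (74.6%, 53%), 0.212 for the activated pair (69%, 53.2%), -0.314 for resting iTregs against tTregs (36.9%, 50.9%) and -0.214 for the stimulated pair (40.3%, 51.5%), and for the response of iTregs minus tTregs the share went from 42.3% to 56.9%. Quantile scaling shifted resting iTregs against activated Tconvs by -0.104 (42.5%, 55.1%), resting iTregs against resting Tconvs by -0.126 and resting iTregs against resting tTregs by -0.109. With pseudocounts of 0.1 and 5, the difference of Il10 was 3.24 and 1.05 for activated against resting Tconvs and 2.79 and 0.85 for resting tTregs against Tconvs. Nothing in the labels ties same-numbered libraries together. The correlations of their deviations ran from -0.425 to 0.302 over 14 comparisons, with every pair over 0.1 in 0 of them and each library closest to its own number in 5, a hint from the data and not the design. A replicate block changed 1 member call, that of Il10 in the response of tTregs minus Tconvs (-1.96, adjusted p = 0.0571), and moved 0 counts of genes by over 1.5 times. Depth limits Il10 in Tconvs and tTregs and Ebi3, Lrrc32 and Foxp3 in resting Tconvs, which rest on 14 reads or fewer per library.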
